A study of Mus musculus with 6 samples.

Results

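A set of 10 transcription factor genes that direct the identity of endothelial cells (ECs) were followed through the cells of mouse back skin: Sox7, Sox17, Sox18, Erg, Fli1, Nr2f2, Prox1, Foxc2, Gata2 and Tcf15. They were taken by gene symbol from the count tables, and all 10 were found among 32285 genes. The rule uses no measured value. In droplet single-cell RNA sequencing, a barcode on every captured transcript, the unique molecular identifier (UMI), allows transcripts to be counted for each gene in each cell. The libraries came from sorted cells that carried the tdTomato reporter after tamoxifen (200 µg/g at postnatal day 17) had switched on Cdh5-CreERT2, a recombinase under the control of the VE-cadherin (Cdh5) promoter. WT telogen (2 mice, postnatal day 20) and WT anagen (2 mice, postnatal day 32) were tdTomato;Cdh5-CreERT2;Krt14-H2BGFP animals of the strain label C57BL/6;CD1. Alk1 KO telogen (2 mice, postnatal day 25) were Alk1 flox/flox;tdTomato;Cdh5-CreERT2 animals of the strain label C57BL/6. Their genotype label reads wild type, against their titles and descriptions, which were followed here. Each mouse gave 1 library, called S1 or S2 within its group. Telogen is the resting phase of the hair cycle and anagen its growth phase, and Alk1 (gene Acvrl1) is a receptor of the TGF-β family. The KO and WT telogen groups differed in genotype, age, strain label and the Krt14-H2BGFP allele at once, and these cannot be told apart.

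ECs line blood and lymphatic vessels, and their arterial, venous, capillary or lymphatic identity rests on transcription factors. SOX7, SOX17 and SOX18 form the SoxF family of HMG box proteins, with SOX17 best known from arteries and SOX18 from the onset of lymphatic development. ERG and FLI1 are ETS proteins that keep ECs endothelial, and GATA2 is a zinc finger protein of blood and vessel development with a known role in lymphatic valves. NR2F2, also called COUP-TFII, is a nuclear receptor that specifies veins and acts with SOX18 to switch on Prox1 in the venous cells that become lymphatic. PROX1 is the homeodomain protein that sets and maintains lymphatic identity, FOXC2 is a forkhead protein needed in collecting lymphatics and their valves, and TCF15 is a basic helix-loop-helix protein described in capillary ECs of muscle, heart and fat.

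The genes lie apart in the genome. In the GRCm38 annotation that shares the gene identifiers of the files, Sox17 (chr1:4490931-4497354, minus strand) and Prox1 (chr1:190118035-190170714, minus strand) were on the same chromosome, as were Sox18 (chr2:181669836-181671640, minus strand) and Tcf15 (chr2:152143561-152149097, plus strand). The others were Sox7 (chr14:63943673-63950732, plus strand), Erg (chr16:95359169-95586593, minus strand), Fli1 (chr9:32422204-32542861, minus strand), Nr2f2 (chr7:70351944-70366735, minus strand), Foxc2 (chr8:121116171-121118895, plus strand) and Gata2 (chr6:88193891-88207032, plus strand). All 10 are annotated as protein-coding. Nr2f2 overlaps the non-coding transcript B130024G19Rik over 1826 bp on the opposite strand, which held 941 UMIs against 24402 of Nr2f2. Prox1 likewise overlaps Prox1os over 419 bp, with 334 UMIs against 17324.

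Promoter windows could be matched for 4 of the 10 genes, with 8 transcription starts in all. Shown here are the 250 bases upstream of the first listed start of each, since these are also 4 genes whose level differed between genotypes in at least 1 EC type. The sequences are RefSeq's on GRCm38.p6, read 5′ to 3′ on the gene's strand. Capitals mark the ETS core GGAA or its reverse complement TTCC, the letters that ERG and FLI1 recognise.
Prox1 (chr1:190170828-190171077, minus strand): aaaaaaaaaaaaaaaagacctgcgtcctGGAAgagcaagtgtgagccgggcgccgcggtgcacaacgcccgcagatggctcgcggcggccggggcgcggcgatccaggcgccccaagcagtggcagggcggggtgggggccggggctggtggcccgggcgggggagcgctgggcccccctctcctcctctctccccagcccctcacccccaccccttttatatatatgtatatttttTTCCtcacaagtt
Nr2f2 (chr7:70366747-70366996, minus strand): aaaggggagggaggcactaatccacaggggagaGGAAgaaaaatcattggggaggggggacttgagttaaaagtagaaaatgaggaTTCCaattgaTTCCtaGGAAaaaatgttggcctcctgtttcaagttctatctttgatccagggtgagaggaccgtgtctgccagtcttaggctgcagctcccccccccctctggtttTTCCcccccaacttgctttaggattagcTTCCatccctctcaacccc
Gata2 (chr6:88193641-88193890, plus strand): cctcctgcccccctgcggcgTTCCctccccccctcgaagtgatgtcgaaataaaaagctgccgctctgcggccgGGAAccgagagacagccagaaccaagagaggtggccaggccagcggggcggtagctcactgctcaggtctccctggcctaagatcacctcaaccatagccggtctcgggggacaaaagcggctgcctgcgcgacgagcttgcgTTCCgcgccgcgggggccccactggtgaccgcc
Erg (chr16:95586594-95586843, minus strand): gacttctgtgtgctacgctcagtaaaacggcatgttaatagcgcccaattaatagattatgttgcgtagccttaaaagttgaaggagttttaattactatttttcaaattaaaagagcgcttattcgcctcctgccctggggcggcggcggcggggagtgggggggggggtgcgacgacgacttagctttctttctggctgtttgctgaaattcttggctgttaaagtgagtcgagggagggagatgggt
The ETS core occurred 2 times in the Prox1 window, 6 times in that of Nr2f2, 3 times in that of Gata2 and 0 times in that of Erg. Among 32851 windows of the same length, 93.4% held it at least 1 time, with a median of 3 matches. The SOX core ACAAT, searched on both strands, was in 27.7% of all windows and in none of these 4. The E-box CANNTG, the letters of basic helix-loop-helix proteins, was in 66.2% of windows, with 2 matches in the Prox1 window and 1 in that of Nr2f2. Matches were counted on both strands and separately for each motif, so matches of different motifs may share bases. A match describes letters only.

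Libraries held 10615358 to 43317677 UMIs, and 1713 to 5106 cells per library were kept, those with between 200 and 5000 genes and less than 10% of UMIs from mitochondrial transcripts. Median depth of the kept cells was 4371 to 6935 UMIs, and any pair of libraries shared 1 to 8 cell barcodes. Cells were clustered without the 10 genes and named from marker lists that do not hold them. The 6 libraries together gave 2672 artery-like, 1453 vein-like, 3843 capillary-like and 4009 lymphatic-like cells. The last were 1680 Lymph-Cap-like cells, named for the markers of lymphatic capillaries such as Lyve1 and Ccl21a, and 2329 Lymph-Col-like cells, named for those of collecting lymphatics such as Cldn11 and Nts. All 12 artery, 9 of 10 vein, 15 of 16 capillary, 10 of 10 Lymph-Cap and 9 of 9 Lymph-Col markers were at least 2-fold higher in the cells of their own name than in other ECs. Clusters were named by these markers, so this was partly fixed in advance. In WT telogen the 16 capillary markers summed to 32600 to 40700 CPM in capillary-like and 28600 to 29300 CPM in vein-like cells. The ranges overlapped in WT anagen (16500 to 32500 and 18400 to 29500 CPM) and in the KO (19100 to 23500 and 20000 to 23700 CPM). The vein markers were apart, at 2270 to 2960 and 12000 to 12900 CPM in WT telogen. The non-endothelial cells of the sort were chiefly 2777 perineurial-like cells, the population that the study calls Cdh5+/Krt19+, and 3216 immune-like cells. Levels of a gene are given as CPM, its UMIs in a cell type and library scaled to 1e+06 UMIs. Acvrl1, the gene targeted in the KO, was at 134 to 159 CPM over all ECs of the WT libraries, and at 119 and 97.1 CPM in the 2 KO libraries. It passed the test between KO and WT telogen in capillary-like cells alone (log2 fold change −0.77 ± 0.18 SE, adjusted p = 0.0075, edgeR). The deleted exons are not given in the sources used here, so the 3′ counts may not see the deletion.

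Levels are compared for each gene across cell types and conditions, and not between genes, because a 3′ count does not put different genes on a common scale. The types were called from other genes of the same cells, so the tests between types measure only how far the 4 WT libraries repeat a difference. A gene was called where the quasi-likelihood test of edgeR on sums per library gave an adjusted p below 0.05 and the fold exceeded 1.3. Leaving a library out of a stage or KO comparison, or of their interactions, leaves 1 mouse in a group. The spread between mice then comes from the other group alone. Calls gained or lost in such fits only describe how a result depends on that library.

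All 10 genes passed the test between lymphatic-like and blood ECs of the 4 WT libraries, and 48.4% of all genes did. Prox1, Foxc2, Nr2f2 and Gata2 were higher in lymphatic-like cells, while Sox7, Sox17, Sox18, Erg, Fli1 and Tcf15 were lower. The median log2 difference of the 10 was −0.56, against 0.00 for all genes tested. Of other blood ECs, artery-like cells differed in 8 genes (32.1% of all genes), vein-like cells in 6 (28.4%) and capillary-like cells in 2 (20% of all genes).

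Prox1, the master regulator of lymphatic identity, marked lymphatic-like cells most sharply. In WT telogen S1 and S2 it was at 1040 and 1220 CPM in lymphatic-like cells, and in WT anagen S1 and S2 at 719 and 659 CPM. Artery-like, vein-like and capillary-like cells of the same libraries held 5.06 to 23.8 CPM. The 2 ranges are far apart, with a log2 difference of 6.61 ± 0.15 SE (98-fold, adjusted p = 3.93e-20). Within lymphatics, Lymph-Col-like cells had 1290, 1480, 844 and 833 CPM in the 4 WT libraries and Lymph-Cap-like cells 484, 527, 423 and 362 CPM, so the 2 types did not overlap. After thinning each cell to 1500 UMIs, a Prox1 UMI was found in 69.1% of Lymph-Col-like and 42.1% of Lymph-Cap-like cells (88.2% and 71.1% without thinning). The share in immune-like cells, which should lack the gene, was 0.213% thinned and 1.82% unthinned. Median depth was 3951 UMIs in Lymph-Col-like, 4275 in Lymph-Cap-like and 11490 in immune-like cells. Shares in blood EC types were 0.83% to 1.96% thinned, above that baseline but small.

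Foxc2, which is needed for the valves of collecting lymphatics, followed the same order at lower counts. Lymph-Col-like cells held 139 and 139 CPM in the 2 WT telogen and 110 and 112 CPM in the 2 WT anagen libraries. Lymph-Cap-like cells held 41.7, 64.9, 43.8 and 40 CPM, well below in all 4. Blood ECs were lower again, with 4.45 to 13.6 CPM in artery-like, 1.68 to 5.01 CPM in vein-like and 0 to 0.879 CPM in capillary-like cells. Foxc2 was thus higher in lymphatic-like than in blood ECs by 5.24 ± 0.18 on the log2 scale, and among blood ECs it was higher in artery-like cells (2.46 ± 0.35) and lower in capillary-like cells (−2.95 ± 0.46). Both of these blood values rest on few UMIs: 0.0185% of capillary-like and 1.03% of artery-like cells had one after thinning, against 0.0963% of immune-like cells. Perineurial-like cells held 10.6 to 20.5 CPM, which overlapped artery-like but not Lymph-Cap-like cells.

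Gata2, with roles in blood cells and lymphatic valves, was split between lymphatic and arterial cells. Its level was 246, 234, 173 and 198 CPM in Lymph-Col-like cells, above every other type in each WT library. Artery-like cells came next with 126, 98.9, 84.2 and 87.8 CPM, and overlapped Lymph-Cap-like cells (95.7, 75.3, 52.7 and 57.2 CPM). Capillary-like and vein-like cells were lower, at 39.7 to 62.6 CPM and 25.4 to 34.9 CPM. In the tests Gata2 was higher in lymphatic-like than in blood ECs (1.52 ± 0.11) and higher in artery-like than in other blood ECs (1.27 ± 0.13), and lower in vein-like cells (−1.14 ± 0.15). Immune-like cells, whose marker list holds mast cell genes, varied from 9.73 to 98.3 CPM among WT libraries, so they give no baseline for this gene. Fibroblast-like cells held 0 to 1.04 CPM.

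Nr2f2, the venous and lymphatic regulator, was nearly missing from arteries. Artery-like cells held 7.14, 3.19, 3.44 and 2.55 CPM in the 4 WT libraries, and vein-like cells 172, 196, 143 and 141 CPM. No 2 types among arteries, capillaries (21.4 to 52.5 CPM) and veins overlapped. The difference of vein-like from other blood ECs was 3.96 ± 0.14 on the log2 scale (15.6-fold, adjusted p = 9.01e-16), and that of artery-like cells −4.18 ± 0.20. Lymph-Cap-like cells were higher than veins at 334, 373, 277 and 263 CPM, and Lymph-Col-like cells at 273, 208, 183 and 174 CPM overlapped them. After thinning, 35.3% of Lymph-Cap-like, 25.1% of Lymph-Col-like, 21.2% of vein-like and 1.13% of artery-like cells had an Nr2f2 UMI, against 1.26% of immune-like cells (60%, 48.3%, 62.4%, 2.01% and 4.16% unthinned). The arterial share was thus no higher than the baseline. Vein-like cells were deeper (median 8127 UMIs) than Lymph-Cap-like cells (4275 UMIs), and the order of these 2 types differed between thinned and unthinned shares. The thinned order is that of the CPM.

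Nr2f2 was also high outside the endothelium. Perineurial-like cells held 833, 673, 522 and 577 CPM in the WT libraries, above every EC type. Against ECs this was a log2 difference of 3.70 ± 0.09 (13-fold), in a comparison that called 64.5% of all genes. Pericyte-like cells held 201 to 235 CPM and fibroblast-like cells 57.3 to 72.2 CPM. Foxc2 was the other gene higher in perineurial-like cells than in the mean of the 4 EC types (1.15 ± 0.22), though it stood below lymphatic-like cells, and missed the threshold with stricter cell limits (0.46, adjusted p = 0.138). The remaining 8 genes were lower in perineurial-like cells, by −2.21 ± 0.24 for Prox1 to −5.07 ± 0.22 for Sox18, so all 10 differed.

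Sox17, the arterial SoxF factor, was graded along the blood vessels. Artery-like cells held 534 and 442 CPM in WT telogen S1 and S2, and 489 and 427 CPM in WT anagen S1 and S2. Capillary-like cells followed with 241, 214, 305 and 266 CPM, and vein-like cells with 102, 107, 103 and 100 CPM. Each step was free of overlap in the WT libraries. The log2 difference was 1.54 ± 0.22 for artery-like and −1.75 ± 0.25 for vein-like cells against other blood ECs. Lymphatic-like cells held only 0.786 to 11.8 CPM, which is −5.44 ± 0.36 against blood ECs (adjusted p = 6.23e-12). A Sox17 UMI was found in 44.2% of artery-like, 29% of capillary-like and 10.5% of vein-like cells after thinning (72.9%, 58.4% and 40.2% unthinned). The thinned shares of lymphatic-like (0.87%) and immune-like cells (0.856%) were about the same, which leaves the lymphatic counts at background.

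Tcf15 was a gene of capillaries and arteries. Its level in capillary-like cells was 117, 154, 148 and 58.3 CPM, with WT anagen S2 well below the other 3 libraries. Artery-like cells held 92.8, 99.7, 117 and 70.1 CPM and overlapped them, while vein-like cells were lower at 19.9 to 35.1 CPM. Against other blood ECs the log2 difference was 1.21 ± 0.16 in capillary-like, 0.83 ± 0.16 in artery-like and −2.04 ± 0.19 in vein-like cells. Lymphatic-like cells held 3.57 to 8.02 CPM, and their thinned share of cells with a UMI (0.522%) was no higher than that of immune-like cells (0.524%). Pericyte-like sums held 102 to 165 CPM of Tcf15 and 26.1 to 187 CPM of Sox17 in WT libraries. The same sums held all 9 EC markers at 1370 to 3050 CPM and all 16 capillary markers at 9280 to 18300 CPM, and their part in these levels was not tested.

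Sox7, Sox18, Erg and Fli1 were present in every EC type. Sox7 was at 120 to 140 CPM in capillary-like, 111 to 145 CPM in artery-like, 79.9 to 102 CPM in vein-like and 54.5 to 85.3 CPM in lymphatic-like cells. Sox18 spanned 185 to 339 CPM in artery-like cells and its ranges overlapped between each neighbouring pair of EC types, from 53.6 CPM upwards. Erg was at 108 to 121 CPM in artery-like cells, apart from capillary-like (70.5 to 95.3 CPM), and lowest in lymphatic-like cells (45.6 to 53.1 CPM). These genes were thus common to ECs with modest gradients. All 4 were lower in lymphatic-like than in blood ECs, by −0.73 ± 0.17 for Sox7, −0.76 ± 0.15 for Sox18, −0.98 ± 0.14 for Erg and −0.39 ± 0.11 for Fli1. The Fli1 difference lay just past the limits, and missed them without WT telogen S1 (−0.31, adjusted p = 0.0695) or WT telogen S2 (−0.36, under the fold limit).

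Fli1 was the ETS gene with the opposite arterial gradient to Erg. It was lower in artery-like cells (116, 115, 91.5 and 81.3 CPM) than in vein-like cells (191, 179, 144 and 127 CPM) in each WT library. Against other blood ECs, artery-like cells were lower in Fli1 (−0.68 ± 0.12) and higher in Erg (0.51 ± 0.14) and Sox18 (0.74 ± 0.15). Vein-like cells were lower in Sox18 (−0.69 ± 0.16) and in Sox7 (−0.50 ± 0.18, adjusted p = 0.0303). The venous Sox7 difference was lost without WT telogen S2 (adjusted p = 0.0564) or WT anagen S1 (adjusted p = 0.122). In vein-like cells Fli1 was at 0.37 ± 0.12, just under the fold limit, and was called under 11 of 14 alternatives, among them DESeq2 and without WT telogen S2 (0.42, adjusted p = 0.00456) or WT anagen S2 (0.38, adjusted p = 0.015). Prox1 there (0.68 ± 0.28, adjusted p = 0.0651) was called under 6 of 14. Erg (−0.38, adjusted p = 0.0405) and Prox1 (0.97, adjusted p = 0.0329) were also called in vein-like cells without WT anagen S2. Outside ECs, Fli1 was also high in immune-like cells, with 62 to 84.8 CPM, and these cells are no baseline for it. Perineurial-like cells held 1.97 to 6.37 CPM of Fli1.

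The 2 lymphatic types differed in 6 of the 9 genes that could be tested, in a comparison added after the data were seen and in which 35.1% of all genes were called. Prox1 (1.32 ± 0.09), Foxc2 (1.45 ± 0.13) and Gata2 (1.66 ± 0.12) were higher in Lymph-Col-like cells. Sox18 (−0.93 ± 0.11), Nr2f2 (−0.53 ± 0.10) and Tcf15 (−1.54 ± 0.53) were higher in Lymph-Cap-like cells. The Tcf15 difference stands on 0.523 to 8.58 CPM against 4.05 to 17.1 CPM and was lost when WT telogen S1, WT telogen S2 or WT anagen S2 was left out (adjusted p = 0.111, 0.0867 and 0.211). Fli1 was called without WT anagen S1 (−0.44, adjusted p = 0.0118) or S2 (−0.40, adjusted p = 0.0234), and Sox7 without WT anagen S2 (0.49, adjusted p = 0.0148). The collecting type thus carried more of the valve regulators and of Prox1, and the capillary type more of the pair that acts upstream of Prox1 in the embryo.

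The genes also varied among clusters within a type, given here as a description without a test. ECs fell into 16 clusters, and Sox17 and Sox18 were highest in artery-like cluster 3 (812 and 426 CPM, led by Alpl, Nebl, Tmem100 and Sema3g). Erg was highest in artery-like cluster 8 (191 CPM, led by Plscr1 and Pi16), where Sox18 was at 147 CPM. Tcf15 was concentrated in capillary-like cluster 2, which also led with Car4, Aqp7, Timp4 and the lipoprotein lipase gene Lpl, at 405 CPM against 26.9 to 57.2 CPM in the other capillary-like clusters. Sox7 was highest in unnamed EC cluster 14 (205 CPM), whose leading genes Prnd, Apln, Pgf, Cxcr4 and Kit include tip cell genes. Foxc2 reached 224 CPM in Lymph-Col-like cluster 1 (led by Fibin, Adm and Wnt4), with 77.7 CPM in cluster 6 and 21.8 CPM in cluster 13. Fli1 was at 41.4 CPM in that Foxc2-high cluster 1, its lowest value of all 16.

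**Figure D1:**
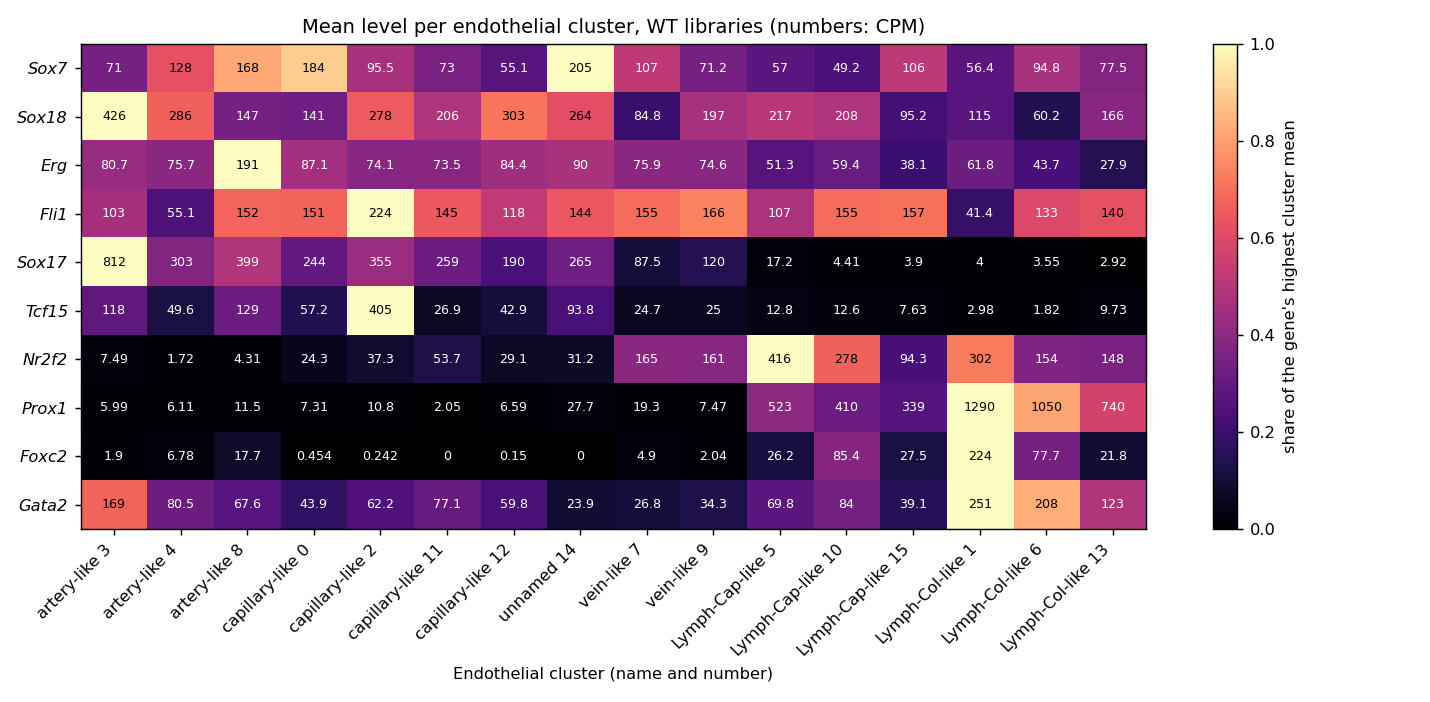
Mean level of each gene (rows) in the 16 EC clusters (columns) over the WT libraries, in CPM, with colour as the share of the gene's highest cluster. Tcf15 stands out in capillary-like cluster 2 (405 CPM) and Foxc2 in Lymph-Col-like cluster 1 (224 CPM).

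Genes with the most similar pattern were found by Pearson correlation of log2(CPM + 1) over 54 sums of library and cell type, among 10784 genes, as a description. The sums share libraries and several share cell types, so no p is given. Sox17 was closest to Mecom (r = 0.975), Dach1 (0.95) and Syt15 (0.931), and Tcf15 to St6galnac2 (0.899), the fatty acid binding protein gene Fabp4 (0.89) and Sox17 (0.89). Sox18 and Erg were among each other's nearest genes (0.944), the former beside the EC marker Pecam1 (0.94) and S1pr1 (0.936), the latter beside Cyyr1 (0.947) and Spns2 (0.941). Sox7 was closest to Nova2 (0.948), Apold1 (0.946) and Ushbp1 (0.946), and Fli1 to Prkch (0.895), Ctla2b (0.881) and Gbp9 (0.877). Gata2 was closest to Hhex (0.914), Parvb (0.908) and Ccdc88c (0.885). The lymphatic genes had Pkhd1l1 (0.88), Prkcz (0.87) and Ahsg (0.861) next to Prox1, and Pard6g (0.79) and Scn3a (0.737) near Foxc2. Nr2f2 was closest to Cpe (0.829), to its overlapping partner B130024G19Rik (0.791) and to Prelp (0.782).

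Among 40 other vascular transcription factors, 35 could be tested between types. Of these, 16 were higher and 13 lower in lymphatic-like than in blood ECs, with Maf (5.77 ± 0.11), Tbx1 (5.85 ± 0.19) and Nfatc1 (2.20 ± 0.10) higher and Epas1, which encodes the hypoxia factor HIF-2α, lower (−2.84 ± 0.10). In artery-like cells 22 were higher and 6 lower than in other blood ECs, led by Msx1 (4.76 ± 0.27), the Notch target Hey2 (4.33 ± 0.29) and Lmo2 (2.36 ± 0.14) above and Meox1 (−3.84 ± 0.21) below. Vein-like cells were higher in 6 and lower in 16, with Gata6 (2.75 ± 0.20) and Meox1 (2.25 ± 0.16) above and Hey1 (−3.69 ± 0.25) below. Capillary-like cells were higher in 9 and lower in 10, with Gata6 at −5.59 ± 0.26. Lymph-Col-like cells were higher in 11 and lower in 9 of 30 than Lymph-Cap-like cells, with the flow-responsive Klf4 (1.11 ± 0.09) and Klf2 (1.01 ± 0.09) above and Meox1 (−4.62 ± 0.16) below. Perineurial-like cells were higher in 4 and lower in 25, and the EC factors Ets1 (−3.96 ± 0.13), Lmo2 (−5.28 ± 0.22) and Tal1 (−4.12 ± 0.21) were among the latter. Of all genes, 48.4%, 32.1%, 28.4%, 20%, 35.1% and 64.5% were called in these comparisons, in the order given.

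Whether the hair cycle stage shifted these genes was asked by comparing WT anagen with WT telogen. In artery-like, vein-like and capillary-like cells, 0 of 10, 0 of 10 and 0 of 9 genes were called (0.884%, 0.305% and 0.0181% of all genes). DESeq2 called 0 in each of the 3 types as well, while 2, 3 and 5 genes had an unadjusted p under 0.05. In lymphatic-like cells 1 of 10 was called (1.77% of all genes) and in perineurial-like cells 1 of 9 (0.345%), in both cases Sox17. DESeq2 called 1 and 3 genes in these 2 types, and 5 and 6 had an unadjusted p under 0.05. In perineurial-like cells Sox7 (2.65 ± 0.48), Erg (2.52 ± 0.58) and Sox18 (2.44 ± 0.45) were also higher in anagen without overlap. EdgeR did not call these (adjusted p = 0.0718, 0.124 and 0.0772), and their mean levels there were at most 10.5 CPM. Values of further genes follow.

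In ECs, Sox18 had the largest stage difference among the genes common to all EC types. In capillary-like cells it was at 162 and 122 CPM in WT telogen and at 319 and 179 CPM in WT anagen (0.92 ± 0.27, adjusted p = 0.235). In lymphatic-like cells the values were 124 and 59.4 CPM against 171 and 151 CPM (0.93 ± 0.28, adjusted p = 0.108). WT telogen S2 was the lowest WT library in both types, and WT anagen S1 the highest. Neither passed with all libraries. Without WT telogen S1 the Sox18 difference was 1.57 in lymphatic-like and 0.88 in artery-like cells. Without WT anagen S2 it was 1.25 in capillary-like cells. These fits have 1 mouse in a group.

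Prox1 in lymphatic-like cells was lower in anagen in both libraries (719 and 659 against 1040 and 1220 CPM), at −0.59 ± 0.14 with an adjusted p of 0.0673 in edgeR. DESeq2 did call this fall with all libraries, the 1 gene of the 10 that it called in these cells. The difference was of like size in Lymph-Col-like cells alone (−0.59 ± 0.14, adjusted p = 0.0796) and was −0.28 ± 0.15 in Lymph-Cap-like cells (adjusted p = 0.432). With the types apart, edgeR called 0 of 8 genes in Lymph-Col-like (1.4% of all genes) and 0 of 10 in Lymph-Cap-like cells (0.205% of all genes), with 2 and 3 at an unadjusted p under 0.05. Leaving out WT anagen S1 brought it past the threshold in lymphatic-like cells (−0.72, adjusted p = 0.0114). The low blood EC counts of Prox1 were also lower in anagen, with 8.38 and 5.42 against 23.8 and 15.9 CPM in vein-like cells (−1.45 ± 0.36, adjusted p = 0.144), a difference called without WT anagen S1 (−1.75, adjusted p = 0.00491). Lymphatic-like cells made up 538 of 3171 and 569 of 4692 cells of the telogen libraries, and 772 of 4301 and 587 of 5106 of the anagen libraries.

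In capillary-like cells neither Nr2f2 nor Tcf15 was called between stages with all libraries. Nr2f2 was at 29.6 and 52.5 CPM in telogen and 23.3 and 21.4 CPM in anagen (−0.73 ± 0.26, adjusted p = 0.31). The Nr2f2 difference was −0.75 without WT anagen S1 and −0.70 without WT anagen S2. Tcf15 was at 117 and 154 CPM against 148 and 58.3 CPM (−0.27 ± 0.36, adjusted p = 0.793), and its difference was −1.04 without WT anagen S1. The 2 anagen libraries thus lie on either side of a telogen value for Tcf15. Sox17 was at 241 and 214 CPM against 305 and 266 CPM (0.46 ± 0.16, adjusted p = 0.303), and was called under none of the 15 alternatives.

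Sox17 was the gene that edgeR called between stages, in cells that hold little of it. Lymphatic-like cells had 2.86 and 0.786 CPM in telogen and 7.72 and 11.8 CPM in anagen (2.44 ± 0.52, adjusted p = 0.0468). Perineurial-like cells had 1.8 and 1.18 CPM against 17.4 and 13 CPM (3.42 ± 0.38, adjusted p = 0.018). The anagen libraries were higher in both types without overlap. Immune-like cells, which should lack Sox17, also went from 1.35 and 1.39 CPM to 12.2 and 9.36 CPM. The 9 EC markers in perineurial-like cells summed to 172 and 218 CPM in telogen and 400 and 432 CPM in anagen, and in immune-like cells to 75.4 to 92.9 CPM and 235 to 425 CPM. The 16 capillary markers in lymphatic-like cells summed to 1070 and 1130 CPM against 1160 and 1470 CPM, all 16 above 0 in each library. The part of these in the Sox17 difference was not tested.

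The lymphatic call of Sox17 was lost without WT telogen S2 (1.84, adjusted p = 0.203) and without WT anagen S2 (2.20, adjusted p = 0.108). It also missed the threshold with stricter cell limits (2.43, adjusted p = 0.112) and with likely doublets removed (1.70, adjusted p = 0.131). It was called under 8 of the 15 alternatives that gave it an adjusted p, missing the threshold also without the correction between libraries (2.28, adjusted p = 0.0532), with all 6 libraries in 1 fit (2.44, adjusted p = 0.0621) and in Lymph-Cap-like cells alone (2.81, adjusted p = 0.0947), and DESeq2 gave it none. The perineurial call was lost without WT telogen S1 (3.70, adjusted p = 0.0685), WT telogen S2 (3.12, adjusted p = 0.0797) or WT anagen S1 (3.20, adjusted p = 0.058), and Sox17 was too low there to be tested with stricter cell limits or with doublets removed. Sox17 was also the 1 gene of 10 whose stage response differed between lymphatic-like and blood ECs (interaction of 2.21 ± 0.41, adjusted p = 0.0316, 0.12% of all genes called). That interaction was lost without WT telogen S1 (adjusted p = 0.169) or WT telogen S2 (adjusted p = 0.598).

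Few other vascular regulators were called between stages, where 0.0181% to 1.77% of all genes were called. Of the 40 other transcription factors tested in vein-like, capillary-like, lymphatic-like and perineurial-like cells, edgeR called 0 of 30, 0 of 32, 0 of 31 and 0 of 32, with 3, 4, 8 and 13 at an unadjusted p under 0.05, and DESeq2 called 0, 0, 0 and 3. Of 25 known targets and partners of these factors, Emcn in artery-like cells (0.77 ± 0.15) and the VEGF co-receptor gene Nrp1 in lymphatic-like cells (2.29 ± 0.43) were higher in anagen, as were Egfl7 (1.38 ± 0.15) and Icam2 (1.98 ± 0.29) in perineurial-like cells. Those last 2 are EC genes. Of 23 targets tested each, edgeR called 0 in vein-like and 0 in capillary-like cells, with 3 and 5 at an unadjusted p under 0.05, and DESeq2 called 0 and 2.

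Between Alk1 KO telogen and WT telogen the genes differed far more often, and so did all genes. Calls were made for 3 of 10 in artery-like cells (17.1% of all genes), 6 of 9 in vein-like cells (21% of all genes), 4 of 9 in capillary-like cells (30% of all genes), 4 of 9 in lymphatic-like cells (24.7% of all genes) and 0 of 5 in perineurial-like cells (19.7% of all genes). In perineurial-like cells 2 genes had an unadjusted p under 0.05 and DESeq2 also called 0. Of the 17 calls in EC types, 15 were rises in the KO. These calls repeat genes over types of the same mice, so they are not separate observations. Of all genes called, 653 rose and 805 fell in artery-like cells, and 791 rose and 983 fell in vein-like cells. In capillary-like cells 1221 rose and 1475 fell, and in lymphatic-like cells 1278 rose and 1435 fell. The median log2 difference of the genes tested was 0.42, 0.96, 0.54 and 0.34 in the 4 EC types, against 0.01 to 0.03 for all genes. Both comparisons use the same WT telogen libraries, so they are not independent of each other.

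**Figure D2:**
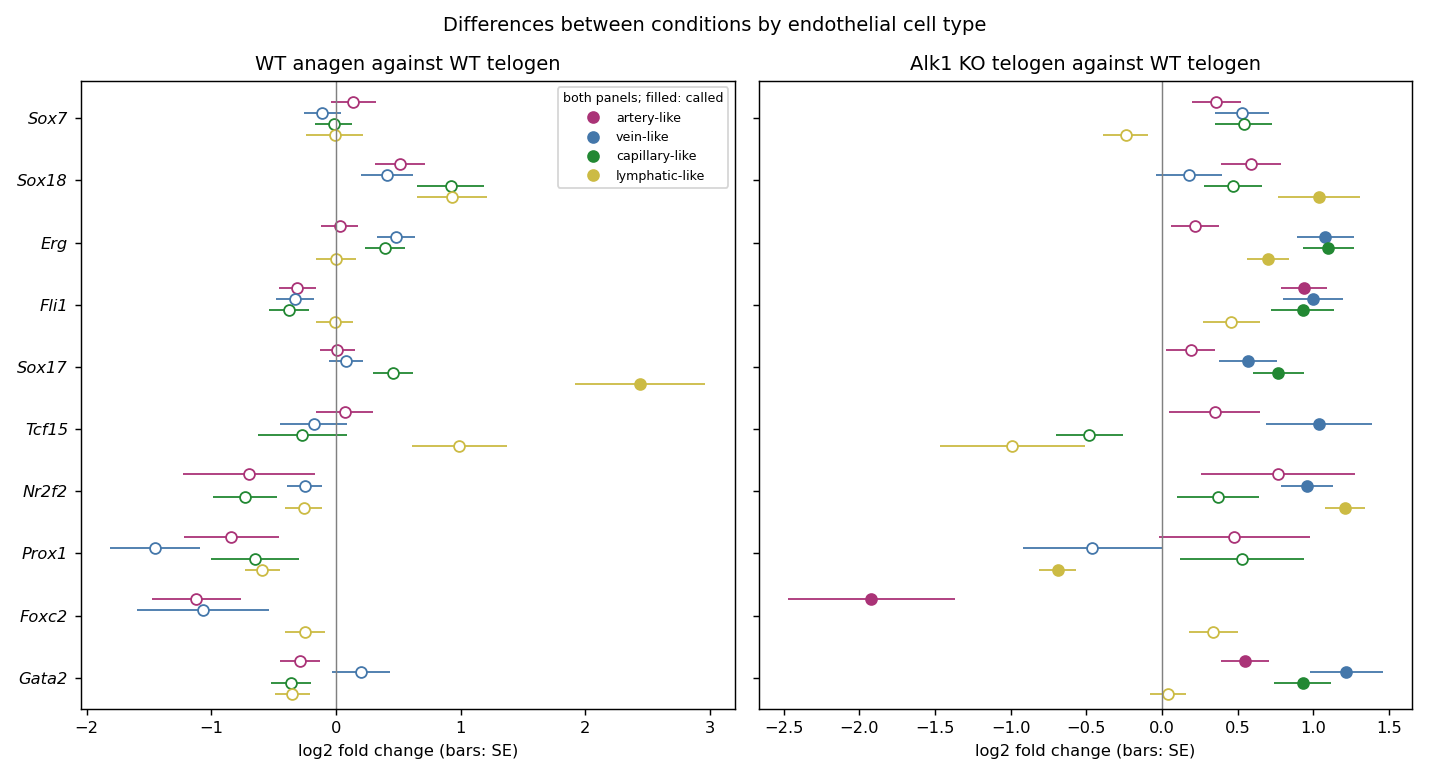
Log2 fold change of each gene between WT anagen and WT telogen (left) and between Alk1 KO and WT telogen (right), by EC type, with SE bars and filled points for genes called. The left panel has 1 filled point, Sox17 in lymphatic-like cells (2.44), and the right panel has 17, of which Foxc2 in artery-like cells (−1.92) and Prox1 in lymphatic-like cells (−0.69) lie below 0.

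Of the ETS genes, Fli1 rose in all 3 blood EC types of the KO and Erg in vein-like, capillary-like and lymphatic-like cells. Fli1 was at 116 and 115 CPM in WT telogen and 204 and 237 CPM in KO artery-like cells, at 191 and 179 against 302 and 446 CPM in vein-like cells, and at 171 and 203 against 296 and 461 CPM in capillary-like cells. Erg went from 63.5 and 68.5 CPM to 127 and 155 CPM in vein-like cells, from 80.3 and 70.5 CPM to 163 and 181 CPM in capillary-like cells, and from 48.9 and 53.1 CPM to 81.5 and 91.2 CPM in lymphatic-like cells. KO libraries were above WT telogen in each of these without overlap. Log2 differences of Fli1 were 0.94 ± 0.15, 1.0 ± 0.20 and 0.93 ± 0.21 in the 3 blood EC types (adjusted p = 0.00219, 0.00297 and 0.00584), and 0.46 ± 0.19 in lymphatic-like cells (adjusted p = 0.106). Those of Erg were 1.08 ± 0.19 in vein-like, 1.10 ± 0.17 in capillary-like and 0.70 ± 0.14 in lymphatic-like cells, and 0.22 ± 0.16 in artery-like cells (adjusted p = 0.411). Fli1 in capillary-like cells was lost without WT telogen S1 (adjusted p = 0.0662), and Fli1 in lymphatic-like cells was called without Alk1 KO telogen S1 (0.74, adjusted p = 0.0036). Immune cells also express Fli1, and the 18 immune markers summed to 10.2 and 14.3 CPM in KO capillary-like cells and to 165 and 167 CPM in WT telogen. Their part in the Fli1 levels was not tested.

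Gata2 rose in all 3 blood EC types of the KO. It was at 126 and 98.9 CPM in WT telogen and 158 and 171 CPM in KO artery-like cells, at 25.4 and 33.4 against 69.8 and 67.8 CPM in vein-like cells, and at 60.4 and 62.6 against 105 and 145 CPM in capillary-like cells. The log2 differences were 0.55 ± 0.16, 1.22 ± 0.24 and 0.93 ± 0.19 (adjusted p = 0.0453, 0.00299 and 0.00346). The arterial one was lost without WT telogen S2 (0.38, adjusted p = 0.344) or Alk1 KO telogen S2 (0.51, adjusted p = 0.109). In lymphatic-like cells Gata2 was at 198 and 191 CPM in WT telogen and 216 and 201 CPM in the KO (0.04 ± 0.12).

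Sox17 rose in capillary-like and vein-like cells of the KO. Capillary-like cells went from 241 and 214 CPM to 390 and 431 CPM (0.77 ± 0.17, adjusted p = 0.00547) and vein-like cells from 102 and 107 CPM to 136 and 179 CPM (0.57 ± 0.19, adjusted p = 0.0433). In artery-like cells, where it is highest, it was at 534 and 442 CPM in WT telogen and 503 and 609 CPM in the KO (0.19 ± 0.16, adjusted p = 0.449). The capillary call was lost without WT telogen S2 (0.66, adjusted p = 0.118), and the venous one without WT telogen S1, WT telogen S2 or Alk1 KO telogen S2 (adjusted p = 0.225, 0.186 and 0.218). Within capillary-like cells the mean of cluster 2 was 287 CPM in WT telogen and 704 CPM in the KO, and that of cluster 0 was 227 and 299 CPM.

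Sox7 showed differences of 0.53 ± 0.18 in vein-like and 0.54 ± 0.19 in capillary-like cells that just missed the threshold (adjusted p = 0.0528 and 0.0533), and both were called without Alk1 KO telogen S2 (0.66 and 0.80, adjusted p = 0.0106 and 0.00171). Sox18 rose in lymphatic-like cells, from 124 and 59.4 CPM to 222 and 174 CPM (1.04 ± 0.27, adjusted p = 0.0216). That call was lost without WT telogen S2 (0.60, adjusted p = 0.0508) or Alk1 KO telogen S1 (0.84, adjusted p = 0.0672), and with DESeq2 (adjusted p = 0.221). In blood ECs Sox18 was not called with all libraries, with 0.59 ± 0.20 in artery-like (adjusted p = 0.0653), 0.18 ± 0.22 in vein-like (adjusted p = 0.594) and 0.47 ± 0.19 in capillary-like cells (adjusted p = 0.0737). It was called in artery-like cells without WT telogen S1 (0.95, adjusted p = 0.00193) and in capillary-like cells without Alk1 KO telogen S2 (0.58, adjusted p = 0.028).

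Nr2f2 rose in vein-like and lymphatic-like cells of the KO. Vein-like cells went from 172 and 196 CPM to 367 and 351 CPM (0.96 ± 0.17, adjusted p = 0.00138). Lymphatic-like cells went from 292 and 252 CPM to 620 and 694 CPM (1.21 ± 0.13, adjusted p = 0.000201). Both KO libraries were above both WT telogen libraries in each type. After thinning, the mean share of cells with a UMI went from 24.6% to 36.5% in vein-like and from 30.9% to 55.5% in lymphatic-like cells. Artery-like cells were at 7.14 and 3.19 CPM against 8.61 and 9.41 CPM, and capillary-like cells at 29.6 and 52.5 CPM against 48 and 63.8 CPM, and neither was called (adjusted p = 0.335 and 0.313). In perineurial-like cells, where Nr2f2 is highest, the values were 833 and 673 CPM in WT telogen and 918 and 1320 CPM in the KO (0.47 ± 0.21, adjusted p = 0.144).

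Prox1 and Foxc2 fell, each in 1 of the 4 EC types. Prox1 in lymphatic-like cells went from 1040 and 1220 CPM to 685 and 771 CPM (−0.69 ± 0.12, adjusted p = 0.00339). The thinned share of cells with a Prox1 UMI was 64.9% and 68.9% in WT telogen and 53.4% and 60% in the KO. Foxc2 in artery-like cells went from 13.6 and 12 CPM to 5.17 and 1.57 CPM (−1.92 ± 0.55, adjusted p = 0.0381), on few UMIs. It was lost without WT telogen S1, WT telogen S2 or Alk1 KO telogen S2 (adjusted p = 0.234, 0.143 and 0.195). Prox1 in vein-like cells was at 23.8 and 15.9 CPM against 8.02 and 23 CPM (−0.46 ± 0.46, adjusted p = 0.512), and called without Alk1 KO telogen S2 (−1.32, adjusted p = 0.0447). In lymphatic-like cells Foxc2 was at 108 and 119 CPM against 171 and 128 CPM (0.34 ± 0.16, adjusted p = 0.15), and was called without Alk1 KO telogen S2 (0.55, adjusted p = 0.0142).

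Tcf15 had no common direction in the KO. Vein-like cells rose from 19.9 and 35.1 CPM to 38.5 and 78.2 CPM (1.04 ± 0.35, adjusted p = 0.0488), a call that was lost without WT telogen S1 (0.69, adjusted p = 0.233) or Alk1 KO telogen S2 (0.48, adjusted p = 0.314). Capillary-like cells were at 117 and 154 CPM against 79.2 and 126 CPM (−0.48 ± 0.22, adjusted p = 0.112), and called without Alk1 KO telogen S2 (−0.80, adjusted p = 0.00642). Artery-like cells were at 92.8 and 99.7 CPM against 73.2 and 169 CPM (0.35 ± 0.30, adjusted p = 0.472), and called without Alk1 KO telogen S1 (0.81, adjusted p = 0.00495). In capillary-like cluster 2, where Tcf15 was concentrated, the mean went from 309 CPM in WT telogen to 159 CPM in the KO, with library ranges of 290 to 327 CPM and 101 to 216 CPM, while cluster 12 went from 40.2 to 152 CPM. These cluster values were not tested.

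The make-up of the lymphatic-like cells differed between KO and WT telogen. Lymph-Cap-like cells were 185 and 167 of 538 and 569 lymphatic-like cells in WT telogen, and 404 and 515 of 692 and 851 in the KO. Lymph-Col-like cells were 353 and 402 in WT telogen and 288 and 336 in the KO. KO lymphatic-like cells thus held mostly the type with less Prox1. The 9 Lymph-Col markers in lymphatic-like cells summed to 6870 and 9590 CPM in WT telogen and to 4010 and 4220 CPM in the KO. The 16 capillary markers summed to 1070 and 1130 CPM against 1980 and 1660 CPM, with Aplnr at 0 in both KO libraries. The part of these in the lymphatic differences was not tested beyond the comparison of the 2 types apart, which was added after the data were seen.

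**Figure D3:**
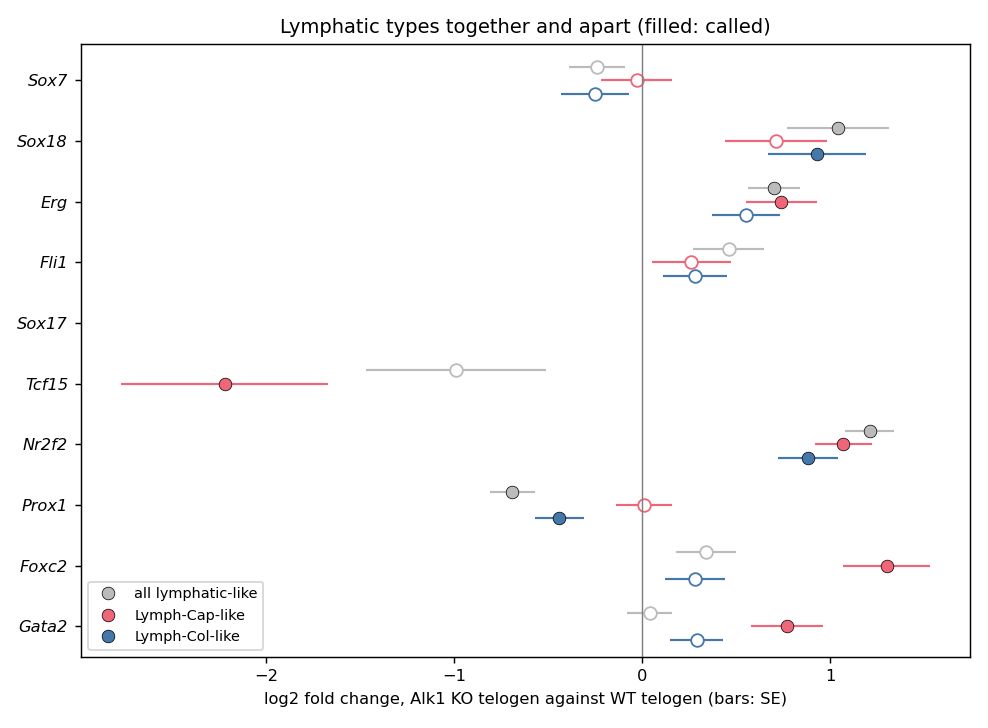
Log2 fold change between Alk1 KO and WT telogen for each gene in all lymphatic-like cells, Lymph-Cap-like cells and Lymph-Col-like cells, with SE bars and filled points for genes called. Prox1 lies at −0.69 in all lymphatic-like cells, at −0.44 in Lymph-Col-like cells and at 0.01 in Lymph-Cap-like cells.

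Taken apart, Nr2f2 rose in both lymphatic types. Lymph-Cap-like cells went from 334 and 373 CPM to 701 and 838 CPM (1.07 ± 0.15, adjusted p = 0.000216) and Lymph-Col-like cells from 273 and 208 CPM to 486 and 441 CPM (0.88 ± 0.16, adjusted p = 0.00288). In each of the 6 lymphatic clusters the KO mean of Nr2f2 was above that of WT telogen, for example 257 against 116 CPM in cluster 15 and 912 against 443 CPM in cluster 5. Prox1 was at 484 and 527 CPM in WT telogen and 477 and 576 CPM in the KO in Lymph-Cap-like cells (0.01 ± 0.15, adjusted p = 0.976). In Lymph-Col-like cells Prox1 went from 1290 and 1480 CPM to 1030 and 1120 CPM (−0.44 ± 0.13, adjusted p = 0.0359). Among clusters, its mean was lower in the KO in Lymph-Col-like cluster 1 (1700 to 1020 CPM), close in cluster 6 (1240 and 1240 CPM) and higher in the small Lymph-Cap-like cluster 15 (404 to 716 CPM).

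Foxc2 and Gata2, which belong to the collecting type, rose in Lymph-Cap-like cells of the KO. Foxc2 went from 41.7 and 64.9 CPM to 156 and 111 CPM (1.3 ± 0.23, adjusted p = 0.00141), and Gata2 from 95.7 and 75.3 CPM to 165 and 138 CPM (0.77 ± 0.19, adjusted p = 0.0109). The KO values of Foxc2 in Lymph-Cap-like cells reached the range of WT Lymph-Col-like cells (110 to 139 CPM). Erg also rose there (0.74 ± 0.19, adjusted p = 0.0172), and Tcf15 fell from 10.1 and 16.2 CPM to 3.91 and 1.82 CPM (−2.22 ± 0.55, adjusted p = 0.0123). That fall rests on very few cells. After thinning, a Tcf15 UMI was in 2 of 157 and 1 of 133 Lymph-Cap-like cells of WT telogen. In the KO it was in 2 of 386 and 1 of 469. The KO fits of the 2 types apart were run with no alternative settings. In Lymph-Col-like cells Foxc2 (0.28 ± 0.16) and Gata2 (0.29 ± 0.14) were not called (adjusted p = 0.26 and 0.186), Sox18 was (0.93 ± 0.26, adjusted p = 0.0285; 0.71 ± 0.27 and adjusted p = 0.0913 in Lymph-Cap-like cells), and Erg was at the threshold (0.55 ± 0.18, adjusted p = 0.0501). Whether the 2 lymphatic types differ in their response to the KO was not tested. The mix of Lymph-Cap-like clusters also differed. Cluster 5 held 114 and 95 cells in WT telogen and 197 and 296 in the KO, and cluster 10 held 44 and 58 against 185 and 200. The part of this mix in the Lymph-Cap-like differences was not tested. In all, 5 of 9 genes were called in Lymph-Cap-like cells (16.2% of all genes) and 3 of 8 in Lymph-Col-like cells (18% of all genes).

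The response to the KO differed between lymphatic-like and blood ECs for 5 of 10 genes, and for 21.4% of all genes. The interaction was negative for Gata2 (−0.90 ± 0.16, adjusted p = 0.000194), Sox7 (−0.75 ± 0.19, adjusted p = 0.00486), Fli1 (−0.55 ± 0.15, adjusted p = 0.00915) and Prox1 (−0.91 ± 0.29, adjusted p = 0.0233), and positive for Sox18 (0.62 ± 0.19, adjusted p = 0.0158). Gata2 kept its call in each of the 4 fits that left out a library, each with 1 mouse in a group. With the lymphatic types apart, its KO difference was 0.77 ± 0.19 in Lymph-Cap-like and 0.29 ± 0.14 in Lymph-Col-like cells. In artery-like, vein-like and capillary-like cells it was 0.55, 1.22 and 0.93. Lymph-Cap-like cells, with less Gata2 in WT, were a larger part of lymphatic-like cells in the KO. The part of this mix in the Gata2 interaction was not tested. Sox7 and Sox18 lost theirs without WT telogen S2 (adjusted p = 0.202 and 0.334) or Alk1 KO telogen S1 (adjusted p = 0.0596 and 0.124), Fli1 without WT telogen S1 or S2 (adjusted p = 0.0864 and 0.141), and Prox1 without WT telogen S2 or Alk1 KO telogen S2 (adjusted p = 0.162 and 0.264). Tcf15 gained a call without Alk1 KO telogen S1 (−2.09, adjusted p = 0.0113). The Prox1 interaction was 0.02 when cells needed at least 500 genes and under 5% mitochondrial UMIs. It sets lymphatic-like cells against blood EC counts of at most 23.8 CPM. Nr2f2 and Erg had interactions of 0.46 ± 0.25 and −0.13 ± 0.16 that missed the threshold.

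Other vascular factors in the KO moved in both directions. Of the 40 others, 5 rose and 5 fell of 32 tested in artery-like cells, 1 rose and 4 fell of 29 in vein-like cells, 6 rose and 6 fell of 31 in capillary-like cells, 7 rose and 10 fell of 33 in lymphatic-like cells, and 3 rose and 3 fell of 27 in perineurial-like cells. Of all genes, 17.1%, 21%, 30%, 24.7% and 19.7% were called in these types. The BMP target genes Id3 (−1.39 ± 0.17) and Id1 (−1.25 ± 0.17) fell in capillary-like cells, as did Meox1 (−1.62 ± 0.23). In vein-like cells Ldb2 (−1.22 ± 0.20) fell and Bcl6b (1.55 ± 0.27) rose. In lymphatic-like cells Epas1 (1.2 ± 0.14), Maf (1.26 ± 0.15) and Hey1 (1.76 ± 0.21) rose and Foxp1 fell (−0.86 ± 0.12). In artery-like cells Lmo2 (−0.89 ± 0.15) and Msx1 (−0.98 ± 0.18) fell. The response of 17 of 34 differed between lymphatic-like and blood ECs, where 21.4% of all genes did. Id3 (1.92 ± 0.16), Id1 (1.57 ± 0.22), Meox1 (2.28 ± 0.35) and Epas1 (1.15 ± 0.14) all had a more positive KO difference in lymphatic-like cells.

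Known targets and partners of the factors were called in 7 of 23 cases in artery-like, 9 of 21 in vein-like, 11 of 23 in capillary-like, 7 of 25 in lymphatic-like and 4 of 20 in perineurial-like cells, where 17.1%, 21%, 30%, 24.7% and 19.7% of all genes were called. In capillary-like cells 9 of the 11 fell, as did 1475 of the 2696 called genes of the whole table, among them Nrp1 (−1.91 ± 0.18), the ETS target Icam2 (−1.36 ± 0.16), the gap junction gene Gja4 (−2.34 ± 0.35) and Fabp4 (−1.29 ± 0.22). Icam2 fell in all 4 EC types tested, with −1.3 ± 0.14 in artery-like, −1.15 ± 0.19 in vein-like and −1.24 ± 0.13 in lymphatic-like cells. Fli1 was called higher in all blood EC types of the KO, and Erg in vein-like, capillary-like and lymphatic-like cells. A link of these rises to Icam2 was not tested. In lymphatic-like cells Emcn (2.48 ± 0.15) and the Lymph-Cap marker Lyve1 (2.15 ± 0.15) rose and Itga9 (−1.66 ± 0.17), an integrin gene of lymphatic valves and a Lymph-Col marker, fell. Emcn and Icam2 are also in the EC marker list, Lyve1, Itga9 and Flt4 in the lymphatic lists, and Fabp4 in the capillary list. The 16 capillary markers in capillary-like cells summed to 32600 and 40700 CPM in the WT telogen libraries and to 19100 and 23500 CPM in the KO libraries, from lowest to highest. The part of this in the capillary differences was not tested. The response of 5 of 25 targets differed between lymphatic-like and blood ECs, about the share of all genes (21.4%). Among them were Emcn at 1.78 ± 0.16 and Flt4, the receptor gene for VEGF-C, at 1.10 ± 0.23.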

How the data were processed

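Per the labels and the study's methods, tdTomato+ cells were sorted from back skin and sequenced as 3′ Chromium libraries, and the authors aligned and counted reads to mm10 with Cell Ranger 6.0.1, using Seurat 4.0 downstream. The deposited files hold raw UMI counts per gene and cell, with no normalization, and no per-sample columns were left aside (0). Cells with 200 to 5000 genes and under 10% mitochondrial UMIs were kept, and total UMIs per library were 10615358 to 43317677. Cells were clustered with leidenalg 0.10.2 on neighbours from scikit-learn 1.9.0 (3000 variable genes without the 10 members and the 40 other transcription factors, 30 components corrected between libraries, 20 neighbours, Leiden resolution 0.6). Clusters were named by at least 3 markers raised 2-fold. Scrublet marked under 0.5% of cells in 5 libraries, so doublets were kept, and removed only as an alternative (in those libraries the cells with the highest 5% of scores).

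Counts were summed per library and cell type and tested with the quasi-likelihood test of edgeR 4.0.16 (R 4.3.3, Benjamini-Hochberg over all genes tested), with DESeq2 1.42.0 as an alternative. Calls were made below an adjusted p of 0.05 where the fold exceeded 1.3. The test was checked on simulated data. Shares of cells with a UMI were counted after thinning to 1500 UMIs, and likeness used log2(CPM + 1). Each library is 1 mouse, and groups come from the labels. The text names all 10 members, the 3 genes most like each, and at most 4 called genes with the smallest adjusted p of each other list and comparison, apart from 2 results that are not reported here. The members and lists were chosen with earlier results of these data known. Sequences are RefSeq's on GRCm38.p6.

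Replicate numbers do not pair the mice: deviations of same-numbered libraries correlated at −0.1 to 0.11. Alternatives covered normalization, low-count filter, cell limits, doublets, clustering, the replicate block and leaving out each library. The lymphatic types taken apart were added after the data were seen. With 2 libraries a group, p-values rest on few mice.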

Additional observations from a re-analysis of the deposited data

Results flagged for a closer look

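The stage difference of Sox17 was larger in lymphatic-like than in blood ECs, with an interaction of 2.21 on the log2 scale in the edgeR fit. It rests on lymphatic counts near background, with thinned WT shares of 0.87% in lymphatic-like and 0.856% in immune-like cells. The call was lost without WT telogen S1 or S2, with stricter cell limits and with likely doublets removed. The KO difference also departed between lymphatic-like and blood ECs, being lower in lymphatic-like cells for Gata2 (−0.90), Prox1 (−0.91), Sox7 (−0.75) and Fli1 (−0.55) and higher for Sox18 (0.62). Of these, only Gata2 kept its call with each of the 4 libraries left out in turn, in fits with 1 mouse in a group. With the lymphatic types apart, its KO difference was 0.77 in Lymph-Cap-like and 0.29 in Lymph-Col-like cells. The part of the changed mix of lymphatic types in its interaction was not tested. Among cells that entered no comparison of conditions were those of the unnamed EC cluster led by Prnd, Apln and Pgf. They held 952 and 791 CPM of Sox17 in the KO libraries against 242 to 296 CPM in the WT libraries. The cluster was small, with 6 and 14 cells in WT telogen, 91 and 36 in WT anagen and 29 and 34 in the KO. Gata2 in the same cluster was at 113 and 167 CPM in the KO and 0 to 44.8 CPM in WT. Pericyte-like cells held 485 and 564 CPM of Nr2f2 in the KO and 201 to 235 CPM in WT, with 99 KO cells. These last differences were not tested.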

How the results depend on the processing

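Counts of members called moved with several settings. The matching counts of all genes are given below only for DESeq2 in KO EC types. The movements therefore cannot be read as particular to the members. Between stages, without a filter on low counts they were 1 in vein-like, 1 in capillary-like, 3 in lymphatic-like and 4 in perineurial-like cells. With the replicate block they were 1 in vein-like, 1 in capillary-like and 3 in lymphatic-like cells. The lymphatic count was 0 with stricter cell limits (at least 500 genes, under 5% mitochondrial UMIs), with likely doublets removed, without correction between libraries, with all 6 libraries in 1 fit, and in Lymph-Col-like or Lymph-Cap-like cells alone. The perineurial count was 3 with DESeq2, 3 without correction, and 0 with stricter limits or doublets removed, where Sox17 was not tested. The stage interaction count was 0 with stricter limits and 0 with doublets removed. In the KO, the artery-like count was 1 with DESeq2 and 1 with stricter limits, the perineurial one 1 with doublets removed, and the interaction count 3 with DESeq2 and 3 with stricter limits. Of called values, those that turned direction were the Prox1 interaction (0.02 with stricter limits) and Prox1 in the KO (0.01 in Lymph-Cap-like cells alone), beside 62 sign changes among uncalled values. The causes were not tested. Under the replicate block Sox17 in KO vein-like cells lost its call (0.56, adjusted p = 0.0598, edgeR). With stricter limits Gata2 in KO artery-like cells (adjusted p = 0.085) and Sox17 (0.0922) and Tcf15 (0.459) in KO vein-like cells lost theirs, and the Prox1 interaction lost its call with doublets removed (adjusted p = 0.165) and at resolution 1.2 (0.154).

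Leaving out a library of a stage or KO comparison left 1 mouse in a group, so counts of calls from those fits are not given. Between types, leaving out each WT library called 9 to 10 members for lymphatic-like, 8 to 8 for artery-like and 5 to 9 for vein-like cells. It called 2 to 2 for capillary-like and 10 to 10 for perineurial-like cells. Over all genes these fits called 5398 to 5643, 3343 to 3753, 2917 to 3229, 2020 to 2125 and 7410 to 7753. Between the lymphatic types they called 5 to 7 members and 2561 to 2866 of all genes. Over all genes DESeq2 called 712 against 1458 in KO artery-like, 748 against 1774 in vein-like, 1385 against 2696 in capillary-like and 1597 against 2713 in lymphatic-like cells. Without correction between libraries, 1 KO library had no vein-like sum, so the KO tests of vein-like cells and of the interaction were not run.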

Other observations

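Fibroblast-like cells ran against the other types for Nr2f2, with 57.3 to 72.2 CPM in the WT libraries and 24.3 and 29.1 CPM in the KO libraries, while perineurial-like and pericyte-like cells were higher in the KO. Gata2 in immune-like cells, which include mast cells, was at 20.2 and 18.2 CPM in WT telogen, 9.73 and 98.3 CPM in WT anagen and 212 and 7.29 CPM in the KO, so the 2 mice of a group could lie far apart. These values were not tested.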
